A study of Mus musculus with 4 samples.

Results

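Of 503 autosomal segments that stayed between replication timing (RT) -1 and 1 for at least 300 kb, 279 began and ended on the same side of the profile. These were 143 peaks, which rise out of late replicating surroundings into the middle of the RT scale and fall back, and 136 dips, which sink out of early replicating surroundings and climb back. The members were chosen by their RT: each is a maximal run of at least 6 consecutive 50 kb bins with RT between -1 and 1 in every bin, with the adjacent bin on each side at RT -1 or lower for a peak, or at RT 1 or higher for a dip. Of the other runs, 221 led from one side to the other and are called transition runs, and 3 lay next to a bin without a value and were left out. Peaks held 1410 bins and dips 1338, together 2748 of the 47928 autosomal bins with a value, of which 18.3% lay between RT -1 and 1. Since RT set the membership, all RT values below are descriptions and none was tested.

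RT was measured by population-based Repli-seq in F121-9 cells, a diploid mouse embryonic stem cell (mESC) line from a cross of 129 with *Castaneus*, grown in N2B27 medium with 2i and LIF. Both S-phase fractions came from these cells of 1 line, pulse labeled with BrdU and otherwise untreated. Newly copied DNA was taken from each fraction with an antibody against BrdU. There were 2 libraries of the early S fraction and 2 of the late S fraction. RT is the log2 of early over late RPM (reads scaled to the size of the library), so that positive values mean more early than late reads. The deposited profile gives 1 value per bin for all 4 libraries, which leaves the error between replicates and the read depth unknown.

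A cell copies its genome in S-phase from origins that fire at different times, and neighboring origins tend to fire together, which gives the megabase-scale domains of an RT profile. Where forks from an earlier firing region meet or spread outward, RT changes gradually along the chromosome. A local maximum of RT marks DNA that is copied before its neighbors, and a local minimum marks DNA that is copied after them. Early replication is generally found in GC-rich DNA with many active genes, and late replication in AT-rich, gene-poor DNA at the nuclear periphery. Both homologs and many cells contribute to a population-based value, so an RT near 0 can come from DNA copied in mid S-phase in every cell or from a mixture of early and late copies, which this profile cannot tell apart.

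Examples of DNA from these runs follow. The 200 bases just before a gene start are given for 3 of the longest peaks and for the 4 longest dips. The gene is the protein-coding gene that starts in the run closest to its extreme bin, which is the bin with the highest RT in a peak and with the lowest RT in a dip. Sequences are from the reference assembly GRCm38.p6 (mm10), on the strand of the gene, and capitals mark CpG dinucleotides, the sites that are unmethylated at most CpG-rich promoters.
Camk1g, peak, chr1:193370299-193370498, minus strand: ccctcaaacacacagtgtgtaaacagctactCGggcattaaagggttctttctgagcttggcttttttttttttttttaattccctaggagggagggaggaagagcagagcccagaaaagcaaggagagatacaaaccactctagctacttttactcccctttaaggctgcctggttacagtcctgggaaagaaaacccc
Hpf1, peak, chr8:60890218-60890417, plus strand: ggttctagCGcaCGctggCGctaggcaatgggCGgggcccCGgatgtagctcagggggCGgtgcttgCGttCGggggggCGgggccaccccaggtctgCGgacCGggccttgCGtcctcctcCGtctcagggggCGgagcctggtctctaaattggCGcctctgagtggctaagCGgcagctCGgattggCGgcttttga
Phlpp1, peak, chr1:106171552-106171751, plus strand: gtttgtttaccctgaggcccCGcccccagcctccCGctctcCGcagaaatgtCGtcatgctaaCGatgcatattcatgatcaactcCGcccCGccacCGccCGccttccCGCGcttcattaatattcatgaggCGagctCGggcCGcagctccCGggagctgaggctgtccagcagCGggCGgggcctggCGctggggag
Nab1, dip, chr1:52500680-52500879, minus strand: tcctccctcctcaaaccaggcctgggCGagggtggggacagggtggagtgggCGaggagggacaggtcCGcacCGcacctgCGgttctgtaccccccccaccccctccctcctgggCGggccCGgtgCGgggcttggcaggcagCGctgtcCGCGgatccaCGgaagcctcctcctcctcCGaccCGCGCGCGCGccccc
Adam30, dip, chr3:98160430-98160629, plus strand: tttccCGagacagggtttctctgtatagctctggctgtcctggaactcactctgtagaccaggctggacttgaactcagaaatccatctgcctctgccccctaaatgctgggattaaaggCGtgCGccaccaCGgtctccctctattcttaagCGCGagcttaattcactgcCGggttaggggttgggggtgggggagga
Apba2, dip, chr7:64501506-64501705, plus strand: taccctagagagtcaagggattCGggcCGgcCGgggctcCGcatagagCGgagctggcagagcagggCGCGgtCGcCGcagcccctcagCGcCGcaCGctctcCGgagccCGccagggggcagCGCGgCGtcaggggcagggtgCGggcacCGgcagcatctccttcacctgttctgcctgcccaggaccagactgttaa
Syt13, dip, chr2:92914898-92915097, plus strand: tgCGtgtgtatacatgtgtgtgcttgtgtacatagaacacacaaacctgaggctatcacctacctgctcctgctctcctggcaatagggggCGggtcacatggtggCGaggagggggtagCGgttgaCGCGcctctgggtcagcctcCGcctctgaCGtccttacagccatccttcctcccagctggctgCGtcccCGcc

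These windows are examples, and peaks and dips are not compared by them, since a further peak window that the same rule picks is not shown. Among the peaks, the windows before *Hpf1*, a cofactor of ADP-ribosylation at DNA breaks, and *Phlpp1*, a phosphatase of Akt, hold 18 CpG each, while the window before *Camk1g*, a calcium-dependent protein kinase, holds 1 CpG and 45.5% GC. Among the dips, the windows before *Nab1*, a corepressor of EGR factors, and *Apba2*, an adaptor of the amyloid precursor protein, hold 18 and 19 CpG. The windows before *Adam30*, a metalloprotease gene, and *Syt13*, a synaptotagmin, hold 7 and 10. Most of these genes start outside the extreme bin of their run. In peaks, RT of the bin of the start was 0.67 for *Hpf1*, 0.73 for *Phlpp1* and -0.32 for *Camk1g*. In dips it was -0.66 for *Nab1*, -0.78 for *Adam30*, 0.06 for *Apba2* and -0.33 for *Syt13*. The extreme RT was 0.67 in the peak of *Camk1g* and -0.32 in the dip of *Apba2*, so these windows do not show the extreme bins.

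Of the 8793 bins between RT -1 and 1, 1410 lay in peaks, 1338 in dips, 2090 in transition runs and 3922 in runs under 6 bins. The rule used these values, so the shares are given only to size the classes. All 19 autosomes carried both classes, with 3.35% of the bins of chromosome 19 and 9.52% of those of chromosome 18 in peaks and dips. Chromosome 9 had 3 peaks and 14 dips, and chromosome 1 had 16 peaks and 9 dips. Mean RT was -0.10 on chromosome 9 and -1.04 on chromosome 1. The X chromosome, which is not included, held 14 peaks and 5 dips in 3225 bins.

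Near the thresholds, 26 peaks and 22 dips were exactly 6 bins long, and 32 runs of peak form and 36 of dip form had 5 bins and fell just outside. Inside peaks, RT came as close to the limits as -0.9999 and 0.988, and inside dips as close as 0.999 and -0.997. The bins just outside had a median RT of -1.24 at peaks and 1.23 at dips, with the closest at -1.002 and 1.002. The roughness of the profile, taken as the deviation of a bin from the mean of its neighbors, had an SD of 0.12 log2 over the 2748 bins. Over all autosomal bins it was 0.14 log2. It does not measure the error between replicates, which is unknown. A bin this close to a limit, or farther from it, could fall on either side. In 4 places a single 50 kb bin past the limit separated 2 runs of the same class: dips on chromosome 1, peaks on chromosome 3 and, at 2 places, dips on chromosome 9.

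Peaks and dips had nearly the same size. Peaks had a median length of 450 kb (quartiles 350 and 575 kb) and dips of 400 kb (350 and 550 kb), and both classes ran from 300 to 1500 kb. At least 1 Mb was reached by 6 peaks and 8 dips. Mean RT was -0.20 ± 0.25 in peaks (SD over 143 runs) and 0.21 ± 0.27 in dips (SD over 136 runs), so the mean of a typical run kept the sign of its surroundings.

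Most runs nevertheless crossed into the other side of the RT scale. The highest RT of a peak had a median of 0.45 (range -0.61 to 0.99) and was above 0 in 119 of 143 peaks. The lowest RT of a dip had a median of -0.35 (range -0.997 to 0.64) and was below 0 in 101 of 136 dips. In 24 peaks every bin stayed below 0, and in 35 dips every bin stayed above 0. The extreme bin lay in the central 50% of the run in 114 peaks and 111 dips.

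**Figure D1:**
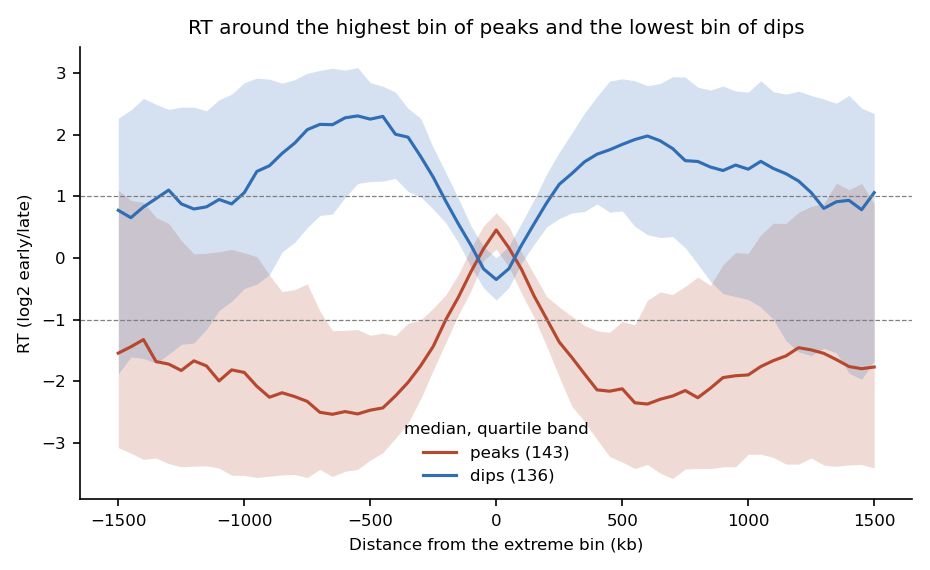
Median RT (lines, log2 early over late) with quartile bands over 143 peaks and 136 dips, against distance in kb from the extreme bin. The medians are 0.45 and -0.35 at the extreme bins and move apart to -2.47 and 2.25 at 500 kb to the left; dashed lines mark the limits of the rule at RT -1 and 1.

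The surroundings reached far beyond the limits. Within 500 kb outside the ends, the most extreme RT averaged over both sides had a median of -2.97 at peaks and 2.64 at dips, and the difference between it and the extreme bin had a median of 3.36 log2 at peaks and 2.99 log2 at dips. RT of -2 or lower was reached on both sides of 91 peaks, and RT of 2 or higher on both sides of 81 dips. In 7 peaks and 10 dips neither side got that far. The aligned median RT of peaks was -2.47 at 500 kb to the left and -2.12 at 500 kb to the right, and at 1000 kb it was -1.86 and -1.90. That of dips was 2.25 and 1.84 at 500 kb, and at 1000 kb it was 1.06 and 1.44, with lower quartiles of -0.50 and -0.67.

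By shape, most runs had a single summit or trough. Counted with a prominence of at least 0.5 log2, 130 peaks had 1 summit, 9 had 2 and 3 had 3 or more, and 124 dips had 1 trough and 11 had 2. The flank bins were included in this count, so the rule itself gives most peaks and dips at least 1. A run with 1 can still hold a plateau. A plateau, meaning at least 6 consecutive bins (300 kb) within 0.5 log2 of each other, was found in 40 peaks (28.0%, exact 95% interval 20.8% to 36.1%) and 50 dips (36.8%, 28.7% to 45.5%). Such intervals cover the counting of runs only. Of the transition runs, 56 of 221 held a plateau, and 153 had no summit. Only 8 peaks and 6 dips lay within 0.5 log2 over their whole length. The share with a plateau depends on the range allowed: at 0.3 log2 it was 7.69% of peaks and 11.8% of dips, and at 0.8 log2 it was 61.5% and 69.9%.

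**Figure D2:**
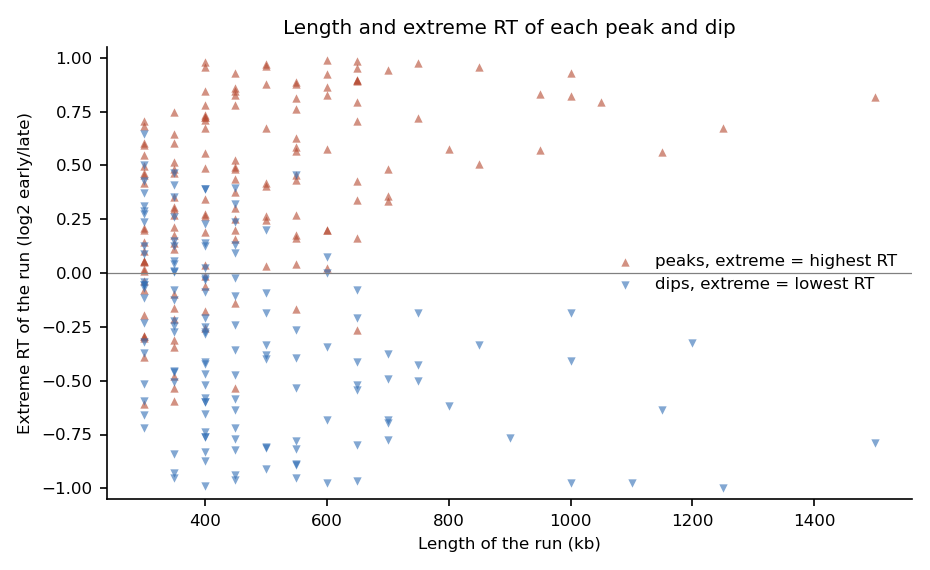
Extreme RT (log2 early over late) against length in kb for each of the 143 peaks (triangles, highest RT) and 136 dips (inverted triangles, lowest RT). Both classes spread from 300 to 1500 kb; runs of either class that cross RT 0 are in the majority, and the extremes of the 6 peaks and 8 dips of 1 Mb or more all lie past 0.

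Longer runs had more extreme values. Across runs, length and extreme RT had a Spearman's rho of 0.48 over 143 peaks and -0.42 over 136 dips, as a description, since a longer run has more bins to choose an extreme from and the limits bound it. The extreme RT had a rho of 0.07 with the GC content of peaks and 0.05 with that of dips, and a rho of -0.00 and 0.01 with the outer RT.

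The longest peak, at chr18:4100001-5600000, was a group of 3 summits. RT rose from -0.81 in its first bin to 0.82, fell to -0.39, rose to 0.60, dropped to -0.14 and rose again to 0.49, and the last 7 bins of the run stayed between -0.96 and -0.73. *Map3k8*, a kinase of inflammatory signaling, and *Mtpap*, the mitochondrial poly(A) polymerase, start in the bin of the first summit, and *Svil*, which codes for the actin-binding supervillin, starts in the bin of the second. *Zeb1*, a zinc finger repressor of epithelial genes, starts in the last bin at RT -0.83. The surroundings were shallow, with -1.11 and -1.37 as the lowest RT within 500 kb to the left and right.

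The peak at chr1:192400001-193650000 also had 3 summits of rising height, at RT 0.19, 0.50 and 0.67. Of its 11 gene starts, *Lamb3*, a laminin chain of basement membranes, lies at RT 0.08 and *Hsd11b1*, which makes active glucocorticoid, at -0.20. The bin of the highest summit holds no gene start. At chr4:7950001-9100000 the summits had RT 0.46, 0.33 and 0.56 and the hollows between them -0.85 and -0.50. *Rab2a*, a GTPase of Golgi traffic, starts at RT 0.16 and *Chd7*, a chromatin remodeler, at 0.33 in the bin of the middle summit.

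The peak at chr8:60700001-61750000 had the highest mean RT of all peaks, 0.28. RT was 0.43 to 0.80 over 8 consecutive bins, fell to -0.04 and returned to 0.66. All 5 of its genes start in bins with RT of 0.66 to 0.69: *Hpf1*, *Clcn3*, an endosomal chloride-proton exchanger, *Nek1*, a kinase of the DNA damage response and cilia, *Sh3rf1*, a scaffold of JNK signaling, and *Cbr4*, a carbonyl reductase. The RT outside reached -4.18 on the left and -3.50 on the right.

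**Figure D3:**
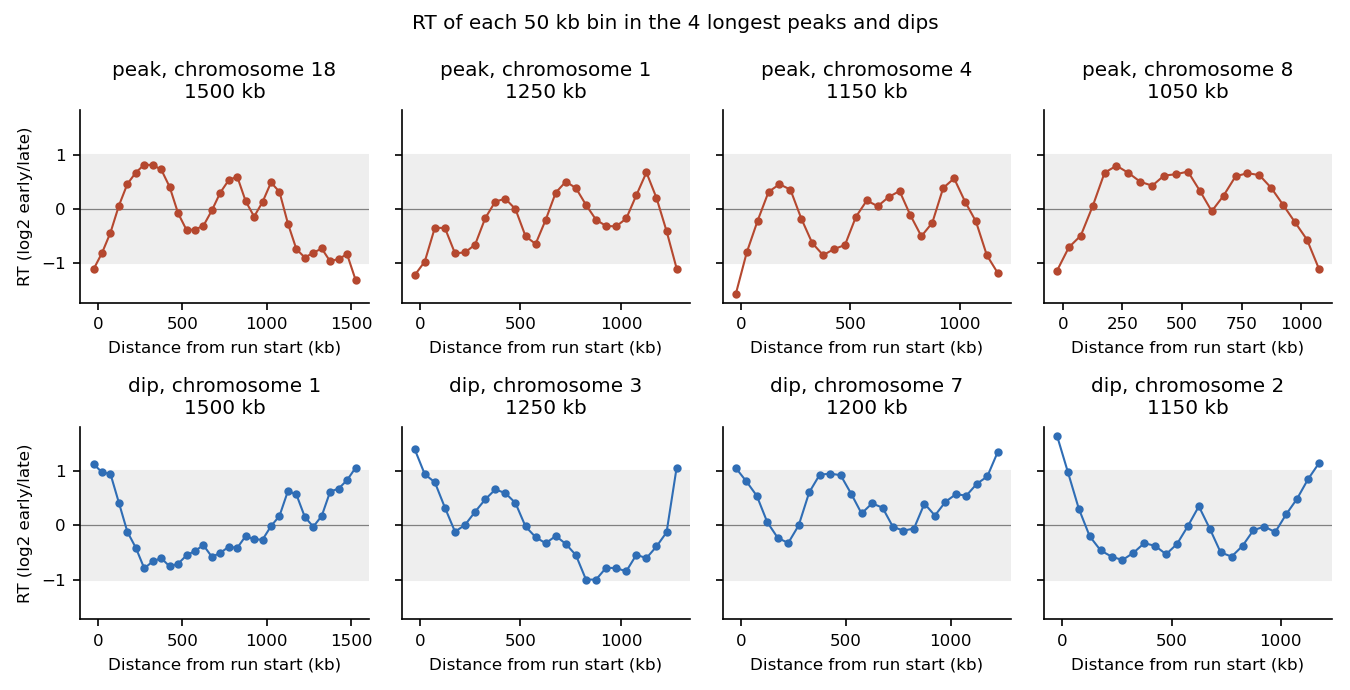
RT (log2 early over late) of each 50 kb bin against distance in kb from the start of the run for the 4 longest peaks (top) and dips (bottom), with the bin on each side outside the run added; the gray band marks RT -1 to 1. The longest peak rises to 0.82 and the longest dip sinks to -0.79, and several summits or troughs share a run.

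The highest summits came close to RT 1. At chr16:56900001-57500000, RT ran through -0.87, -0.70, -0.49, 0.03, 0.41, 0.57, 0.82, 0.99, 0.55, 0.85, -0.49 and -0.81 from left to right. Genes line this rise, with *Tomm70a*, a receptor of mitochondrial protein import, at RT 0.41, *Nit2*, an amidase, at 0.57, *Tbc1d23*, a factor of endosome-to-Golgi traffic, at 0.82, *Tmem30c* at 0.99 and *Filip1l* at 0.85. At chr12:116050001-116700000, 6 bins in a row reached 0.56 to 0.98. *Wdr60*, a chain of the dynein of cilia, and *Esyt2*, a tether of the endoplasmic reticulum to the plasma membrane, start at RT 0.98, *Ncapg2*, a subunit of condensin II, at 0.88, and *Ptprn2*, a phosphatase-like protein of secretory granules, at 0.74.

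Plateaus in peaks were found both above and below RT 0. At chr1:186150001-186800000, RT had a mean of -0.74 over 10 flat bins (500 kb) with *Tgfb2*, a growth factor of the TGF-beta family, and *Rrp15*, a factor of ribosome assembly, both at RT -0.56. No bin of this peak went above -0.26. At chr17:72450001-73400000, the 10 flat bins had a mean RT of 0.58. There *Lbh*, a transcriptional cofactor, starts at RT 0.70, *Lclat1*, a cardiolipin acyltransferase, at 0.60 and *Ypel5* at 0.45, while *Alk*, a receptor tyrosine kinase, starts outside the shelf at -0.45.

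The longest dip, at chr1:52200001-53700000, held the longest plateau of all peaks and dips. Its RT fell from 0.98 in the first bin to a trough of -0.79, and the plateau of 13 bins (650 kb), which includes the trough, had a mean of -0.55. On the floor start *Nab1* at -0.66, *Nemp2* at -0.75, *Mfsd6* at -0.55 and *Inpp1* and *Hibch*, of inositol phosphate and valine breakdown, at -0.36. The surroundings were again shallow, with RT of 1.17 and 1.26 as the highest within 500 kb.

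In the dip at chr3:97250001-98500000 the trough reached -0.997, next to the limit. *Bcl9*, a cofactor of beta-catenin, starts in the first bin at RT 0.94. *Notch2*, a receptor of the Notch pathway, starts at -0.55, and *Phgdh*, the first enzyme of serine synthesis, at -0.54. The dip at chr7:64400001-65600000 had 2 troughs of RT -0.32 and -0.10 with a rise to 0.95 between them. *Tjp1*, the tight junction protein ZO-1, starts on its right slope at 0.77, and *Nsmce3*, of the SMC5-SMC6 complex, starts on the rise at 0.93.

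At chr2:92550001-93700000 the troughs had RT -0.64 and -0.57. The GC content of this dip, 49.4%, was above the 45.1% of its flanks. *Chst1*, a sulfotransferase, starts in the first bin at 0.98, and *Tspan18*, a tetraspanin, in the second trough at -0.57. The dip with the next lowest RT after that on chromosome 3, at chr8:77600001-78000000, ran through RT 0.77, -0.02, -0.60, -0.99, -0.91, -0.47, -0.04 and 0.69. It is a V of 400 kb, with *Ednra*, the endothelin A receptor, starting at RT -0.60.

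Gene-dense dips show that a dip need not be poor in genes. At chr7:141850001-142850000, 30 protein-coding genes start in 1000 kb, and RT fell from 0.999 to -0.41. The right part of this dip carries *Igf2*, the imprinted growth factor, at RT -0.19 and *Ins2*, an insulin gene, at -0.25, and the trough carries *Lsp1* and *Tnnt3*, the fast skeletal troponin T, at -0.41. Of its 30 starts, 3 are CpG-rich. At chr6:48150001-48850000, with 22 starts, the trough of -0.77 lay in a bin without a gene start, and the 8 *Gimap* genes, GTPases of lymphocytes, lay at RT 0.20 to 0.53. The dip at chr6:5000001-6000000 held a plateau of 11 bins with a mean RT of 0.02, and its paraoxonase genes *Pon1*, *Pon2* and *Pon3* lay at RT 0.47, 0.40 and 0.40.

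The genes and the sequence did not enter the rule. By bins, peaks had 7.96 protein-coding gene starts per Mb, dips 7.85 and transition runs 6.24, against 7.25 in all bins between RT -1 and 1. The density was 8.65 in all autosomal bins, 17.2 in bins at RT 1 or higher and 3.39 in bins at RT -1 or lower. Peaks thus held 561 starts and dips 525. The median density over single runs was 6.67 starts per Mb in peaks, 5.23 in dips and 5.71 in transition runs. The order of dips and transition runs therefore depends on the measure. No start was found in 13 peaks and 19 dips, and 10 or more in 11 of each class. The classes nevertheless differed in where their GC content lay. It had a median of 41.6% in peaks (quartiles 40.1% and 43.1%) and 44.0% in dips (42.2% and 45.4%), with 42.8% in transition runs and a mean of 41.9% over all autosomal bins.

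Set against the 500 kb on each side, GC content, CpG density and gene starts went opposite ways in the classes. The rule chose the adjacent bins by RT, late at peaks and early at dips. The contrast therefore describes runs and flanks together, and not the runs alone. GC content was higher in the run than in its own flanks in 111 of 143 peaks and 50 of 136 dips, and CpG density in 110 peaks and 27 dips. The density of gene starts was higher in the run in 100 peaks and lower in the run in 100 dips. Pooled over flanks, there were 5.06 starts per Mb beside peaks and 12.4 beside dips. Among the transition runs, whose flanks lie on opposite sides, GC content was higher in the run in 127 of 221. The density of gene starts was higher in the run in 95 of them and lower in 120. The share of repeats was higher than in the flanks in 42 of 143 peaks, 49 of 136 dips and 73 of 221 transition runs.

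Gene starts gathered at the summits of peaks and not at the troughs of dips. A protein-coding gene started in the extreme bin of 68 of 143 peaks (47.6%, exact 95% interval 39.1% to 56.1%) and of 35 of 136 dips (25.7%, 18.6% to 33.9%). Over all bins the share with a start was 30.4% in peaks, 28.9% in dips and 28.3% on the autosomes. The summit bins held 87 starts, 12.2 per Mb, and the trough bins 45, 6.62 per Mb. GC content of the extreme bin had a mean of 42.2% ± 0.21 (SEM, n = 143 bins) in peaks, against 40.6% and 40.5% at 500 kb to the left and right, and of 43.7% ± 0.26 (SEM, n = 136 bins) in dips, against 44.4% and 44.6%.

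**Figure D4:**
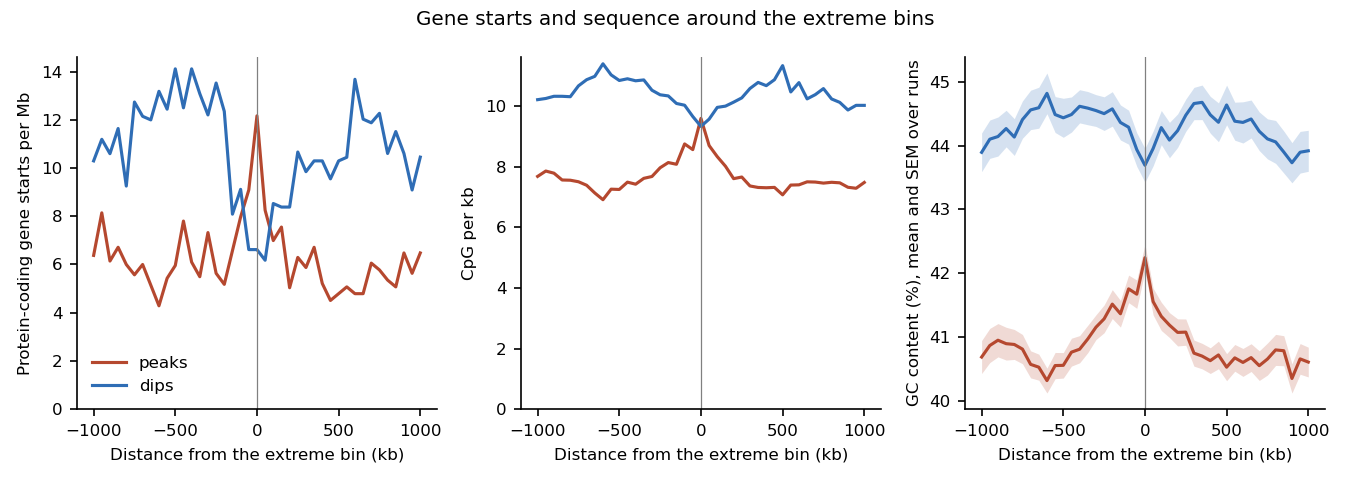
Protein-coding gene starts per Mb, CpG per kb and mean GC content (%, band is the SEM over runs) in 50 kb bins against distance in kb from the extreme bin, for peaks and dips. At distance 0 peaks have 12.2 starts per Mb and dips 6.62, while at 500 kb to the left they have 5.96 and 14.1; the GC axis does not start at 0.

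The kind of promoter differed in the same places. A start was called CpG-rich where the 500 bases on each side had at least 50% GC and a ratio of observed to expected CpG of at least 0.6. CpG-rich starts were 58 of 87 in the summit bins (66.7%, exact 95% interval 55.7% to 76.4%), 276 of 561 in all bins of peaks (49.2%) and 173 of 678 in the flanks of peaks (25.5%). In dips the flanks had the highest share, with 16 of 45 in the trough bins (35.6%, 21.9% to 51.2%), 208 of 525 in all bins of dips (39.6%) and 865 of 1563 in their flanks (55.3%). Transition runs had 320 of 652 (49.1%), close to the share in all bins of peaks. All bins between RT -1 and 1 had 38.9%, close to that in all bins of dips. The interval of the trough bins includes the share of all autosomal starts, 45.8%, and that of the summit bins does not. Starts that share a bin or a gene cluster are not independent, which the intervals leave out.

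**Figure D5:**
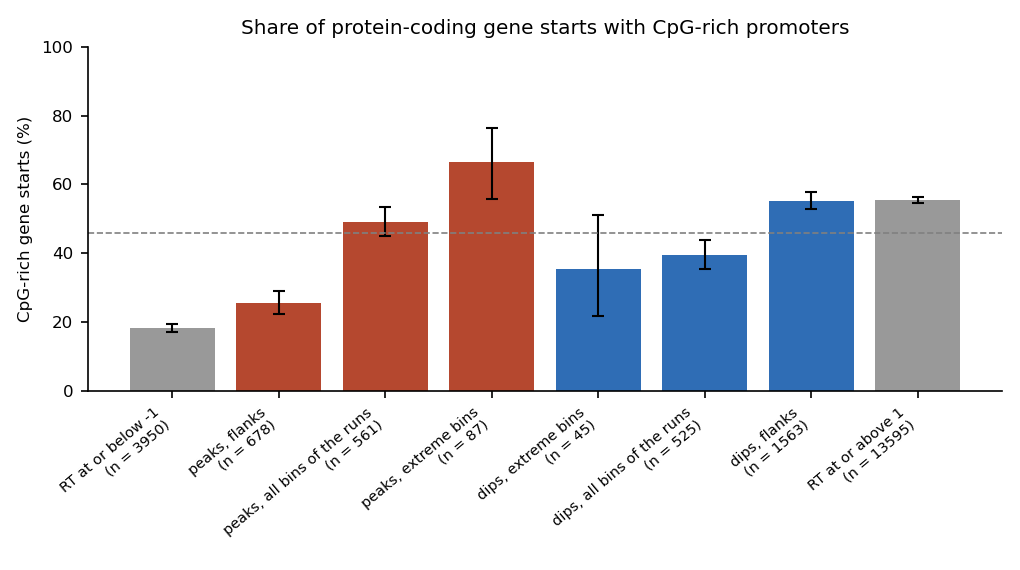
Share of protein-coding gene starts that are CpG-rich (%) with exact 95% binomial intervals, which cover counting only, in peaks, dips, their flanks within 500 kb and their extreme bins, beside all bins at RT -1 or lower and at RT 1 or higher; n is the number of starts and the dashed line is the share over all autosomal bins, 45.8%. The share climbs from 25.5% in the flanks of peaks to 66.7% in their summit bins, and is 35.6% in the trough bins of dips against 55.3% in their flanks.

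Inside single runs the relation between RT and GC content was loose. The Spearman's rho across the bins of a run had a median of 0.21 in peaks and 0.15 in dips, and was above 0 in 101 of 143 peaks, 86 of 136 dips and 140 of 221 transition runs. Neighboring bins are not independent, and many runs have only 6 bins.

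Single long genes filled more of the dips than of the peaks. A single protein-coding gene covered at least 50% of the run in 12 of 143 peaks (8.39%, exact 95% interval 4.41% to 14.2%), 35 of 136 dips (25.7%, 18.6% to 33.9%) and 43 of 221 transition runs (19.5%, 14.5% to 25.3%). These genes and the families below were named after their values were seen. A gene covered every base of 3 peaks and 13 dips. Of these peaks, 2 lie inside *Sox5*, a transcription factor of cartilage and neurons, and *Prkg1*, a cGMP-dependent kinase, which span 954 and 1201 kb. Among the dips, *Ank3*, which organizes the axon initial segment, spans 629 kb around a trough of -0.45. *Vps13b*, a lipid transfer protein, spans 560 kb around -0.83, *Exoc4*, a subunit of the exocyst, 725 kb around -0.82, and *Cacna1d*, a calcium channel, 452 kb around -0.37. *Lrba*, *Hivep3*, *Tmem132d*, *Cadm1*, *Arhgef28*, *Ncald* and *Gm11639* are of the same kind. The annotated spans of *Fgfr2*, 2961 kb, and of *Gm20388*, 4435 kb, cover many other genes, so their cover says little about a single gene.

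Some runs coincide with clusters of related genes. Among peaks, 16 olfactory receptor genes start in 350 kb at chr2:87350001-87700000, together with *Pramel6* and *Pramel7*, which start at RT 0.35 and 0.14. A further 11 olfactory receptor genes start at chr17:37800001-38200000, where RT reached 0.98. Peaks also held 8 *Trim* genes of antiviral defense in 1 run and 7 *Clca* genes in another. Among dips, 13 olfactory receptor genes start at chr11:49000001-49500000, 6 *Adh* genes of alcohol metabolism at chr3:138000001-138500000, and 6 *Zfp* genes at chr11:50600001-51350000. Clustered copies share sequence. The methods describe a filter on mapping quality, which removes reads that match several copies equally well, in a paragraph on read mapping where Repli-seq is not named.

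Of all 20732 protein-coding genes with an RT, 2.71% started in peaks and 2.53% in dips. Of 39 pluripotency genes, 0 started in either class, which allows a share of up to 7.69% in each, and all 39 lay in bins with RT of 1 or higher. Developmental transcription factors had 8 of 212 in peaks (3.77%) and 7 in dips (3.30%). The list of signaling ligands, whose members were not checked singly, had 5 of 108 in peaks (4.63%) and 3 in dips (2.78%). Of 146 long neuronal and synapse genes, 1 started in a peak and 0 in dips, which allows a share of up to 2.05% in dips by counting alone. Of these genes, 107 started at RT -1 or lower. Only starts are counted, and a long gene that starts elsewhere, such as *Ank3* above, can still span a run. The zinc finger list was taken by symbol prefix and leaves out genes such as *Zeb1*. It had 5 of 381 in peaks and 14 in dips, of which 6 start in 1 run. Vomeronasal receptor genes had 6 of 316 in peaks and 0 in dips, which allows up to 0.949%. Ribosomal protein genes had 1 of 92 in each class, and olfactory receptor genes 40 of 1128 in peaks and 27 in dips. Each upper limit is 3 counts divided by the number of genes of the list, and not an exact interval. It takes genes as independent, which genes that share a bin or a cluster are not, so the true limits are wider. These counts are small, and none is called particular to a list.

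Among the developmental factors in peaks, *Foxc1*, a forkhead factor of mesoderm and eye, starts in a summit bin at RT 0.96, and its neighbor *Foxf2* starts in the same peak at 0.32. *Foxa1*, a pioneer factor of endoderm, starts at RT 0.16 in a summit bin, and *Meis2*, a cofactor of Hox proteins, at 0.22. *Ebf1*, a factor of B cell fate, starts at 0.20, *Lhx9*, a factor of the gonad, at 0.25, *Barhl2*, a factor of retina and spinal cord, at -0.14 and *Zeb1*, described above, at -0.83. In dips, the related pair *Foxf1* and *Foxc2* starts at RT 0.69 and 0.68 in 1 run. *Sox7*, a factor of endoderm and vessels, starts at 0.72, *Nfib*, a factor of lung and brain, at 0.59, *Twist2*, a factor of mesenchyme, at 0.56, *Alx4*, a factor of skull and limb, at 0.49 and *Myod1*, the muscle determination factor, at 0.21.

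Of the 5 genes of the ligand list in peaks, *Gdf6*, of the BMP family, lay at RT -0.12, *Wnt16* at -0.25 and *Tgfb2* at -0.56. *Fgf7*, the keratinocyte growth factor, lay at -0.86 and *Fgf12* at -0.96. In dips, *Bmp10*, a ligand of the heart, lay at 0.61, *Cer1*, an inhibitor of Nodal, at 0.09 in the same run as *Nfib*, and *Igf2* at -0.19.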

How the data were processed

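Population-based Repli-seq of 4 libraries (2 early, 2 late S fraction) was used. The authors deposited log2 values, 1 per 50 kb bin, as the log2 of early over late RPM. The submitters' processing notes name mm10, Bowtie2, SAMtools and bedtools. The methods give a filter on mapping quality and removal of PCR duplicates for reads of the hybrid cells, without naming Repli-seq there. Whether bins were filtered or smoothed and how replicates were combined is not given for this profile in the sources used here, and smoothing would widen runs and lower summits. Depth per sample is unknown.

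Runs were found as maximal stretches between RT -1 and 1 on the 19 autosomes. A flank is the bin exactly adjacent. GC, CpG and soft-masked repeats were counted on GRCm38.p6, and protein-coding gene starts and cover were taken from GENCODE vM21. Named runs were the 4 longest, and the 2 most extreme, the 2 with the most starts and the 2 with the longest plateau of each class. Named genes were the up to 6 starts nearest the extreme bin, members of fixed lists, and others named after their values were seen. The members and lists were chosen with earlier results of these data known. The prominence of summits was set after seeing the data. No test was run. Planted runs and sequences were recovered on simulated data. Alternatives covered length, limits, smoothing, flanks, X, plateau range and gene biotypes. Python 3.11.15 was used with scipy 1.17.1 for intervals and summits, numpy 2.4.6, pandas 2.3.3, and matplotlib 3.10.9 for plots. A few genes and 1 sequence that these rules would name are not reported here.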

Additional observations from a re-analysis of the deposited data

How the results depend on the processing

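No paired analysis was possible because each bin has a single log2 ratio of both fractions and all replicates, and leaving out a replicate was not run for the same reason. Of 152 alternatives, 129 left a value within its interval or a count within 1.5 times, and 23 moved it. With limits of RT 0.8 there were 92 peaks with 792 bins, and the median length of dips was 350 kb. With limits of 1.5 there were 219 peaks with 2459 bins and 209 dips with 2694 bins, with median lengths of 500 and 550 kb. The median CpG density over these peaks was 7.98 per kb, against 8.69 in the main setting. With a minimum of 4 bins there were 207 dips, and both median lengths were 350 kb. With a minimum of 8 bins there were 95 peaks, and the median lengths were 550 kb in peaks and 500 kb in dips. The median GC content over these peaks was 42.2%, against 41.6% in the main setting. These counts and lengths follow from the rule. Counting genes of any biotype gave a median over runs of 18 starts per Mb in peaks and 17.5 in dips. With protein-coding genes these medians were 6.67 and 5.23. Pooled over bins, genes of any biotype gave 19.9 starts per Mb in peaks and 20.8 in dips. A plateau range of 0.3 log2 gave 7.69% of peaks and 11.8% of dips with a plateau, and a range of 0.8 gave 61.5% and 69.9%. The share of extreme bins with a gene start stayed between 42.0% and 49.3% in peaks and between 21.5% and 27.3% in dips. The share of CpG-rich starts in the extreme bins stayed between 61.8% and 68.9% in peaks and between 23.9% and 39.2% in dips. The alternatives for these shares were chosen after seeing the data. Among them, leaving out olfactory and vomeronasal receptor genes was run only for the share of extreme bins with a gene start. The share of CpG-rich starts was not computed without these genes. Depth is unknown, so its effect on run ends could not be examined.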
